A study of Drosophila melanogaster with 3 samples.

Results

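The large subunit of the cytoplasmic ribosome of Drosophila melanogaster is built from ribosomal RNA and a set of proteins whose genes carry symbols beginning with RpL. The genes studied were all protein-coding genes on the major chromosome arms whose symbol starts with RpL and a digit, or is RpLP0, RpLP1 or RpLP2. There were 53 of them among 13945 protein-coding genes. The rule uses gene symbols and no measured value, although it was set with earlier results of these data known.

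Binding of the CG6765 protein near these genes was measured by chromatin immunoprecipitation followed by sequencing, which recovers the DNA fragments bound by a chosen protein. The flies were a transgenic line that stably expresses CG6765 with GFP, a green fluorescent protein, fused to its C-terminus. Embryos of mixed sex, 0 to 24 h old, were used whole, and 3 biological replicates made up the single group. The chromatin was sonicated to 200 to 800 bp, and the labels describe the precipitation as anti-GFP while the antibody field names CG6765. All cells of the embryo were pooled, so a strong peak could come from many cells or from few. The labels do not say what drives the transgene, and no untagged or input sample was analysed here, so the share of these peaks that does not depend on the tag was not tested.

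Ribosomal protein genes are among the most highly transcribed genes of growing cells, and their products are made in matched amounts. In flies, many of them start transcription at a TCT initiator, a short pyrimidine-rich motif that replaces the usual initiator and is read by a machinery that uses the TBP-related factor Trf2 in place of TBP. Dref and M1BP, which bind the DRE and Motif 1 sequences, are known to act at many of these promoters. Several fly ribosomal proteins are encoded by a pair of paralogues, of which one is often restricted to the germline.

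The DNA around the start sites of 9 genes is shown first, because the summits of the bound genes lie on or close to it. The first 6 include genes near the top of the list and both kinds of start, with and without a motif. The last 3 are RpL40 and RpL10Aa, which lacked a thresholded peak, and RpL10Ab, the bound paralogue of RpL10Aa. Each line reads 5′ to 3′ on the gene's strand, in the dm6 build (Release 6, RefSeq), from 60 bases before the annotated canonical start to 20 bases from it onwards; for RpL7 the stretch is 40 before and 10 from it onwards. Capitals mark the motifs found in the window: the Motif 1 word on the opposite strand in RpL7, the TCT initiator in RpL14, RpL13A and RpL40, the DRE in RpL34a and RpL37-1, and in RpL40 a GAGA element that overlaps the initiator.
RpL7, chr2L:10200964-10201013, plus strand: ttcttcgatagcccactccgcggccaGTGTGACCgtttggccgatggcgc
RpL14, chr3L:8600946-8601025, plus strand: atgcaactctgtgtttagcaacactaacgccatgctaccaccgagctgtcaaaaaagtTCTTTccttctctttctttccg
RpL13A, chr3R:5624414-5624493, plus strand: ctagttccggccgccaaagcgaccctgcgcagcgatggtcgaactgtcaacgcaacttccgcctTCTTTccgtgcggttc
RpL34a, chr3R:26059248-26059327, minus strand: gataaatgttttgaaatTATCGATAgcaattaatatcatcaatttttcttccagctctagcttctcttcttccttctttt
RpL22, chrX:765111-765190, minus strand: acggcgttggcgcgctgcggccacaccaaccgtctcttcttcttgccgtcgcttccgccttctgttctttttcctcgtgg
RpL37-1, chrX:15139348-15139427, minus strand: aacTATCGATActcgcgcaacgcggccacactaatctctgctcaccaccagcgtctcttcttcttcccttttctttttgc
RpL40, chr2L:4227639-4227718, plus strand: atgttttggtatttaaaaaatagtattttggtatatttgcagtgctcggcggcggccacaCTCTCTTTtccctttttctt
RpL10Aa, chr3R:15037306-15037385, plus strand: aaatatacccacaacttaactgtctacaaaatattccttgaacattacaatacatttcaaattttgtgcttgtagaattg
RpL10Ab, chr3L:11822791-11822870, plus strand: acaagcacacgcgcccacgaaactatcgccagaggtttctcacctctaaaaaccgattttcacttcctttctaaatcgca

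Most large-subunit genes carried a peak at their start. In 46 of the 53 genes, or 86.8%, the authors' thresholded list held a summit no more than 500 bp from a start site (95% Wilson interval 75.2 to 93.5%, which treats the genes as independent draws). Among all protein-coding genes the share was 17.0%. The thresholded list held 3816 peaks, and these were exactly the 3816 candidates with the highest signal among 30000 candidate regions called on the pooled replicates. A summit of any strength among the 30000 candidates lay within 500 bp of 50 of the 53 genes, or 94.3%, against 49.3% of all protein-coding genes.

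The share was similar when each replicate's own list was used. The 3816 strongest summits of replicate 1 reached 41 of the 53 genes (77.4%), against 15.5% of all protein-coding genes. Those of replicate 2 reached 43 genes (81.1%), against 17.0%. Those of replicate 3 reached 45 genes (84.9%), against 17.0%. The mean was 81.1% ± 3.77 (SD, n = 3), and for all protein-coding genes outside the large-subunit set it was 16.3% ± 0.850 (SD, n = 3).

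**Figure D1:**
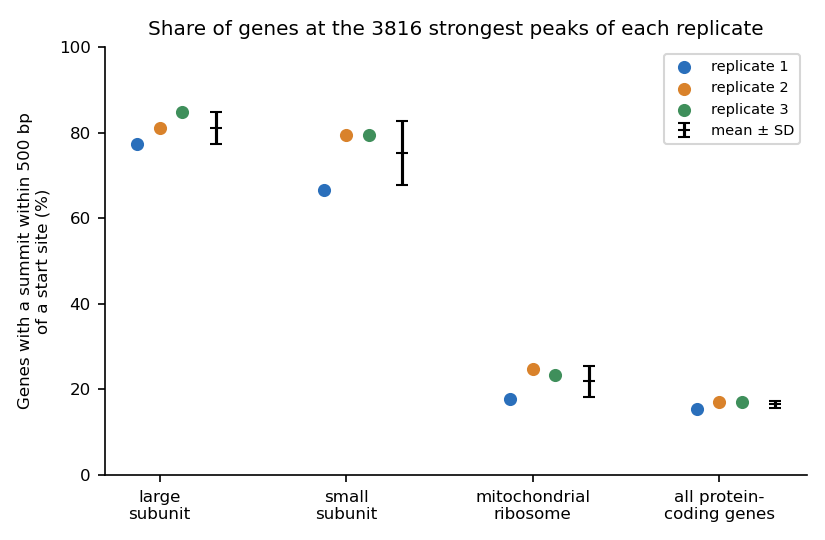
Percentage of genes with a summit within 500 bp of a start site among the 3816 strongest summits of each replicate, for large-subunit, small-subunit and mitochondrial ribosomal protein genes and for all protein-coding genes; points are replicates and the bar is mean ± SD (n = 3). The large-subunit points lie between 77.4% and 84.9%, and those of all protein-coding genes between 15.5% and 17.0%.

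The 39 genes of the small subunit (symbols beginning with RpS and a digit, and the gene sta) were the closest gene set. Their share at the strongest replicate summits was 75.2% ± 7.40 (SD, n = 3). The large-subunit share was 10.7, 1.64 and 5.42 percentage points higher in replicates 1, 2 and 3, with a mean difference of 5.92 ± 4.54 (SD, n = 3), so the difference was barely larger than its spread over replicates. The 73 mitochondrial ribosomal protein genes, whose products build the separate ribosome of the mitochondrion, had a share of 21.9% ± 3.62 (SD, n = 3). The large-subunit share was higher than theirs by 59.6, 56.5 and 61.6 points, a mean of 59.2 ± 2.59 (SD, n = 3). Against all other protein-coding genes it was higher by 62.1, 64.4 and 68.2 points, a mean of 64.9 ± 3.07 (SD, n = 3). The last 2 differences were many times their spread over replicates. In each of the 3 comparisons the difference was positive in 3 of 3 replicates and the two-sided exact sign-flip test gave p = 0.25 (0.25 after Benjamini-Hochberg adjustment over the 3), which is the smallest p that 3 replicates allow.

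The peaks of the large-subunit genes were also stronger than most. The authors' signal value of the 46 thresholded summits ran from 141 to 1195 with a median of 530, while the whole thresholded list ran from 135 to 2699 with a median of 193. Ranked by signal over the pooled candidates, with 1 the highest, their median rank was 254.5. Small-subunit genes with a thresholded summit had a median rank of 520.5, mitochondrial ones 1447, and all other protein-coding genes 1710. Of the 277 protein-coding genes with a summit of rank 300 or better, 26 were large-subunit genes. That was 49.1% of the 53 genes, against 25.6% of small-subunit, 6.85% of mitochondrial and 1.81% of all other protein-coding genes. These 26 genes stood at 274 or better and the next, RpL17, stood at 529. The gap from RpL35 at 1638 to RpL38 at 2761 was wider in ranks. The split at 300 did not hold within every replicate: in replicate 1, RpL4 ranked 1376 and RpL17 ranked 750. The rank limit of 300 was chosen after the values were seen.

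RpL7, a conserved protein of the large subunit, had the strongest peak of the set. Its pooled signal was 1195, at rank 19, and the matched summits ranked 69, 18 and 10 in replicates 1, 2 and 3. The summit lay 30 bp downstream of the start, beyond the Motif 1 word shown above, and 60 bp from the start of Ripalpha. RpL14 followed at rank 49 with a signal of 944 and replicate ranks of 91, 44 and 37. Its summit lay 19 bp upstream of the start, within the stretch shown above. RpL24, a protein at the interface between the subunits, stood at rank 58 with a signal of 899 and replicate ranks of 108, 58 and 39. In every replicate all 3 genes ranked 108 or better.

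RpL41, the smallest ribosomal protein, had a signal of 877 and replicate ranks of 93, 74 and 42. RpL13 had 819, with ranks of 158, 90 and 45, and its peak was shared with a neighbour: the summit lay 5 bp downstream of the RpL13 start and 89 bp upstream of the start of Dref, which encodes the DRE-binding factor. RpL11, which with RpL5 carries the 5S ribosomal RNA into the subunit, had a signal of 758 and replicate ranks of 191, 125 and 75. The gene of its partner RpL5 lay at the other end of the range. Its signal was 143, its ranks were 2800 and 2578 in replicates 1 and 2, and replicate 3 held no summit within 100 bp.

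RpL19 had a signal of 757 with its summit on the start base itself, and replicate ranks of 140, 137 and 55. RpL13A had a signal of 753, 37 bp upstream of its start, with ranks of 368, 85 and 49. Both genes showed the order common to the set, with the weakest rank in replicate 1 and the strongest in replicate 3.

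Other genes of rank 300 or better included RpL30, RpL31, RpL23A, RpL32, RpL28, RpL37A, RpL35A, RpL9, RpL8, RpL3, RpL27 and RpL4. Their pooled signals lay between 519 for RpL4 and 725 for RpL30. RpL3 and RpL8 are core proteins near the peptidyl transferase centre, and RpL4 lines the tunnel through which the new protein leaves. RpL3 had a signal of 526 and replicate ranks of 319, 277 and 226, and RpL8 had 539 with ranks of 491, 270 and 146. Lower-ranked genes with a thresholded summit included RpL17, RpL18, RpL27A, RpL7A, RpL12, RpL36A, RpL36, RpL23, RpL39, RpL26, RpL6, RpL29, RpL35, RpL38 and RpL10. Their signals ran from 379 for RpL17 down to 152 for RpL10. RpL10, which joins the subunit late in its assembly, had no summit in replicate 1 and ranks of 2715 and 2483 in replicates 2 and 3. RpL38 ranked 10440, 1772 and 5622, so it was among the strongest 3816 summits of replicate 2 alone.

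The stalk of the large subunit recruits the translation factors that hydrolyse GTP, and is made of RpLP0 at the base and the acidic proteins RpLP1 and RpLP2. All 3 genes carried a thresholded summit. RpLP0 had a signal of 752, and its ranks were 202, 95 and 77. RpLP1 had a signal of 534 on the base next to its start, and its ranks were 392, 225 and 173. RpLP2 was weaker, with a signal of 300 and ranks of 1075, 1049 and 491, and no replicate placed it above either of the others.

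**Figure D2:**
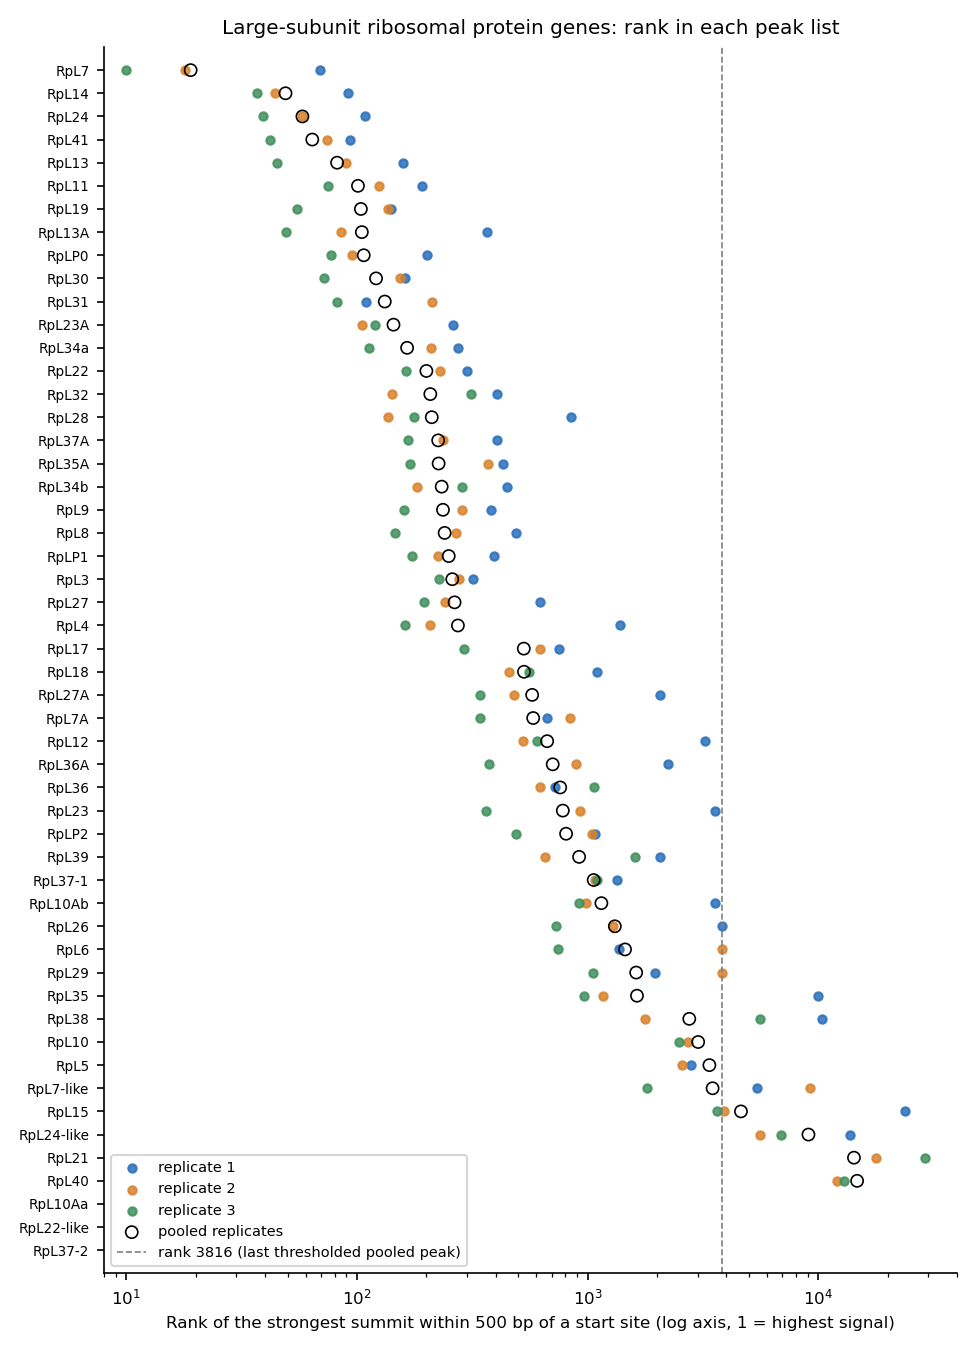
Rank of the strongest summit within 500 bp of a start site for 52 of the 53 genes, ordered by pooled signal, on a log axis on which 1 is the highest signal; filled points are replicates, open circles the pooled candidates, and a missing point means no candidate within 500 bp. The pooled ranks run from 19 for RpL7 to 14753 for RpL40, with 45 of the genes shown left of the dashed line at 3816, and RpL10Aa, RpL22-like and RpL37-2 have no point.

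The replicates placed the summits at the same sites. A summit within 100 bp of the thresholded one was present in all 3 replicate lists for 41 of the 46 genes (89.1%), and in 2 lists for the other 5. For all other protein-coding genes with a thresholded summit the share in all 3 lists was 77.3%. In 38 of the 46 genes (82.6%) all 3 matched summits were among the strongest 3816 of their list, against 44.5% of those other genes. The thresholded list was derived from these same replicates, so finding its summits in them again is partly built in. The large-subunit summits also had higher signal, with a median pooled rank of 254.5 against 1710 for those other genes. Genes of equal signal were not compared, so these shares do not show better agreement at a given signal. The 5 genes matched in 2 lists were RpL26, RpL29, RpL35 and RpL10, unmatched in replicate 1, and RpL5, unmatched in replicate 3. Replicate 1 did hold summits within 500 bp of the starts of RpL29 (rank 1968), RpL26 (rank 3839) and RpL35 (rank 10005). These lay more than 100 bp from the pooled summit. Matching within 50 bp gave 36 genes in all 3 lists, and within 200 bp it gave 44.

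The median matched rank was 437 in replicate 1 (42 genes), 273.5 in replicate 2 (46 genes) and 196 in replicate 3 (45 genes). Of the 41 genes matched everywhere, 36 had their weakest rank in replicate 1 and 31 their strongest in replicate 3. The order of the genes was similar between replicates, with Spearman's rho over the 41 genes of 0.850, 0.906 and 0.908 for replicates 1 and 2, 1 and 3, and 2 and 3; these are descriptions across genes of the same libraries. The highest rank of a gene was a median of 2.59 times its lowest. The widest ratios belonged to RpL23 (9.81, with ranks of 3562, 928 and 363), RpL4 (8.55, with 1376, 207 and 161) and RpL13A (7.51). In each of these 3 genes replicate 1 held the weak rank. The narrowest belonged to RpL37-1, at 1.24, with ranks of 1337, 1077 and 1094. Sequencing depth is not given by the peak lists, and its part in the lower ranks of replicate 1 was not tested.

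The summits sat on the start sites. The median signed distance from the nearest annotated start was -14 bp, where negative values lie upstream, and the median absolute distance was 24 bp. Summits lay upstream in 33 genes, downstream in 11 and on the start base in 2. They were within 10 bp of a start in 13 genes, within 25 bp in 24, within 50 bp in 39 and within 100 bp in 45 of the 46 (97.8%). Small-subunit genes had a median absolute distance of 16 bp and 93.3% within 100 bp. For mitochondrial ribosomal protein genes the median was 177.5 bp and 12.5% lay within 100 bp. All other protein-coding genes with a thresholded summit had a median of 139 bp and 36.5% within 100 bp.

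The nearness to the start was present in each replicate's own 3816 strongest summits. The median absolute distance of the large-subunit summits was 20, 22 and 22 bp in replicates 1, 2 and 3, and that of all other protein-coding genes was 144, 148 and 134 bp. The share within 100 bp was 95.1, 95.3 and 95.6% for the large subunit and 35.5, 34.2 and 39.5% for the others. The side of the start was less stable: the median signed distance was 1 bp in replicate 1, -20 bp in replicate 2 and -12 bp in replicate 3. The medians fell on both sides of the start, which leaves the side unsettled.

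**Figure D3:**
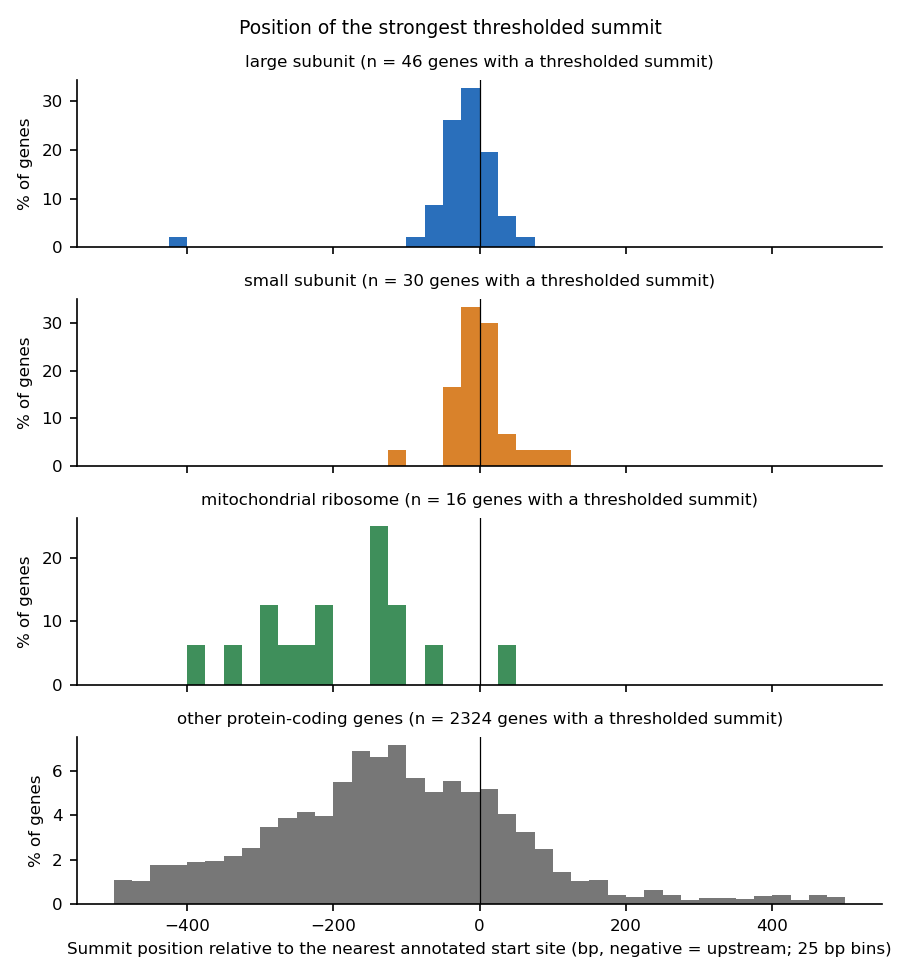
Distance in bp from the nearest annotated start site to the strongest thresholded summit within 500 bp, as the percentage of genes per 25 bp bin, for large-subunit, small-subunit, mitochondrial ribosomal protein and other protein-coding genes; negative values are upstream. The large-subunit summits gather at the start with a median of -14 bp and 1 gene at -415 bp, the small-subunit summits also gather there with a median of -1.5 bp, and those of the mitochondrial and other protein-coding genes spread widely upstream.

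The summits farthest from a start were those of RpL7-like at -415 bp, RpL34b at -89 bp and RpLP2 at -74 bp. The RpL7-like summit was nearer to other genes, since CG34164 and JhI-21 also start within 500 bp of it and the nearer of those starts was 38 bp away. It was the only one of the 46 whose nearest coding start was not that of the large-subunit gene. No peak served 2 large-subunit genes, so the 46 genes had 46 distinct peaks. The summit also lay within 500 bp of another coding gene's start in 19 genes (41.3%), against 48.6% of the other protein-coding genes with a thresholded summit. The distance to that other start had a median of 249 bp. No large-subunit gene held a thresholded summit in its body beyond 500 bp from a start, and 6 genes held at least 2 thresholded summits within that distance. Many of these genes are short, which limits the bases beyond that distance. The same counts were not made over all protein-coding genes, so neither is read as particular to the set.

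The 46 bound genes were spread over the arms. Of the large-subunit genes on 2L, 11 of 13 had a thresholded summit, on 2R 11 of 13, on 3L 9 of 10, on 3R 9 of 11 and on X 6 of 6. Many small nucleolar RNAs guide the modification of ribosomal RNA. In total 33 small nucleolar RNA genes lay on the same strand within the spans of 16 large-subunit host genes. Of these hosts 15 had a thresholded summit, and 31 of the 37 other genes did. The median signal was 526 in the hosts and 534 in the others with a summit.

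The 7 genes without a thresholded summit were RpL15, RpL24-like, RpL21, RpL40, RpL10Aa, RpL22-like and RpL37-2. RpL15, a conserved core protein, fell just outside the list: its strongest candidate was at rank 4626 with a signal of 120, 60 bp downstream of the start. Its matched ranks were 23747, 3887 and 3630 in replicates 1, 2 and 3. The gene just inside was RpL7-like, at rank 3485 with a signal of 141. RpL24-like, whose yeast counterpart is an assembly factor that RpL24 replaces, had a candidate at rank 9076 with a signal of 81.5, 116 bp downstream.

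RpL21 and RpL40, both single-copy core genes, had weak candidates. RpL40 encodes a protein made as a fusion with ubiquitin. Its candidate stood at rank 14753 with a signal of 61.4, 67 bp downstream of the start, and the only summit matched within 100 bp of it ranked 12062, in replicate 2. RpL40 carries a TCT initiator, as its sequence above shows, and so do RpL21 and RpL37-2. RpL21 stood at rank 14296 with a signal of 62.6, 166 bp downstream, and no replicate list held a summit within 100 bp of it.

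The other 3 genes, RpL10Aa, RpL22-like and RpL37-2, had no candidate of any strength within 500 bp, in the pooled list or in any replicate. The nearest pooled candidate was 2464 bp from RpL10Aa, 784 bp from RpL22-like and 3267 bp from RpL37-2. The nearest thresholded summits were 50458, 19757 and 36051 bp away. All 3 are members of paralogue pairs whose other gene was bound.

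Among the 53 proteins, 5 pairs were at least 40% identical in amino acids over their aligned length. RpL34a and RpL34b were 86.5% identical, and both were bound: RpL34a had a signal of 639 with ranks of 275, 209 and 113, and RpL34b had 543 with ranks of 446, 182 and 285. RpL34a ranked higher in replicates 1 and 3 and lower in replicate 2, so their order was not the same in all replicates. RpLP1 and RpLP2, 42.3% identical, were also both bound.

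In the other 3 pairs only 1 gene had a candidate. RpL37-1 and RpL37-2 were 75.3% identical, and RpL37-1 had a signal of 261. RpL10Ab and RpL10Aa were 63.9% identical, and RpL10Ab had a signal of 252, with ranks of 3571, 987 and 920. RpL22 and RpL22-like were 46.8% identical. RpL22 had a signal of 586, 40 bp upstream of its start, with ranks of 300, 229 and 163. RpL22-like is known from the male germline, and embryos of this age were the only stage examined. In the sequences above, neither the RpL10Ab nor the RpL10Aa window has a marked motif. The RpL10Aa window is AT-rich, with a GC content of 27.5% against 46.2% for RpL10Ab. In the longer 300-base promoter, RpL10Ab held a DRE and a TATA box (TATAAA), and RpL10Aa held none of the words searched. The other pairs differed from this: RpL22-like held Motif 1 and RpL22 no word. RpL37-1 held a DRE and RpL37-2 a TCT initiator.

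The more distant namesakes, which fell under the 40% limit, also differed in signal, although all of them had a candidate. RpL7 and RpL7-like were 34.6% identical, with signals of 1195 and 141. RpL24 and RpL24-like were 29.7% identical, with signals of 899 and 81.5.

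**Figure D4:**
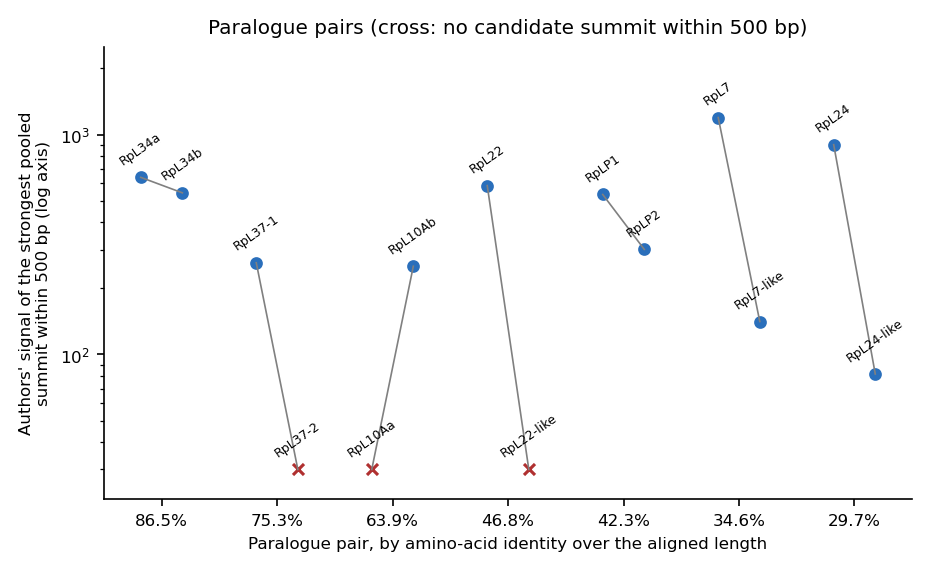
Authors' signal of the strongest pooled summit within 500 bp of a start, on a log axis, for the 7 pairs of related genes ordered by amino-acid identity; a cross means that no candidate was present and has no signal value. Both genes have a thresholded summit in the RpL34a/RpL34b, RpLP1/RpLP2 and RpL7/RpL7-like pairs, whereas RpL37-2, RpL10Aa and RpL22-like carry a cross. The RpL7-like summit is nearer to the start of another gene.

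Motifs were searched by exact words in the 300 bases from 250 before to 50 after the canonical start. The DRE (TATCGATA, its own reverse complement) was present in 15 of the 53 large-subunit promoters (28.3%) and in 8.94% of all protein-coding promoters. Motif 1 (GGTCACAC, either strand) was present in 9 (17.0%) against 7.54%. An E-box (CACGTG, its own reverse complement) was present in 10 (18.9%) against 4.26%, and in none of the 39 small-subunit promoters. The GAGA element (GAGAG, either strand) was present in 11 (20.8%) against 30.2%, and the TATA box (TATAAA, same strand) in 17 (32.1%) against 32.2%. The first 3 words were thus more frequent at large-subunit promoters than over all promoters, and the TATA box was not. Much of this was shared with the related sets: small-subunit promoters held the DRE in 33.3%, Motif 1 in 12.8%, the GAGA element in 10.3% and the TATA box in 33.3%, and mitochondrial ribosomal protein promoters held the DRE in 20.5%, Motif 1 in 11.0% and the E-box in 6.85%.

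The TCT initiator, searched as TCTTT on the gene's strand with its C within 5 bases of any annotated start, was present in 26 of the 53 genes (49.1%). Small-subunit genes had it in 46.2%, mitochondrial ribosomal protein genes in none of 73, and all protein-coding genes in 2.09%. It was carried by 23 of the 46 genes with a thresholded summit and by 3 of the 7 without. The median signal was 542 with the motif and 330 without it, 23 genes each. Only the exact word within the 5-base limit was counted. In RpL22, shown above, the word lies just beyond that limit and was not counted. Genes without a match may therefore hold the word nearby or a similar sequence, and the 2 groups are not firm promoter classes. Genes with a DRE had a median signal of 315 (14 genes) and those without 540 (32 genes). For the TATA box the medians were likewise 315 with (16 genes) and 547 without (30 genes). For the other words the medians with and without lay close together, at 543 and 523 for Motif 1, 543 and 526 for the E-box and 534 and 526 for the GAGA element. None of these splits was tested. These word matches describe the sequence and do not show which factor is bound.

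The words were also counted around the summits. These windows are shorter than the promoters, and the comparison is with other protein-coding genes that have a thresholded summit. Summits of those genes lay farther from the start, so their windows cover other parts of the promoter. Within 50 bp of the summit the DRE was present in 9 of the 46 genes (19.6%), against 3.10% of the other protein-coding genes with a thresholded summit. Motif 1 was present in 6 (13.0%) against 1.81%, and the E-box in 5 (10.9%) against 1.03%. The GAGA element was present in 2 (4.35%) against 12.3%, and the TATA box in 1 (2.17%) against 12.1%. Within 100 bp the last 2 contrasts were smaller as ratios. The GAGA element was then present in 8 (17.4%) against 25.6%, and the TATA box in 6 (13.0%) against 21.7%. The median GC content of the 101-base windows, within 50 bp, was 45.5% for the large subunit and 36.6% for the other genes. The part of base composition in these shares was not tested.

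**Figure D5:**
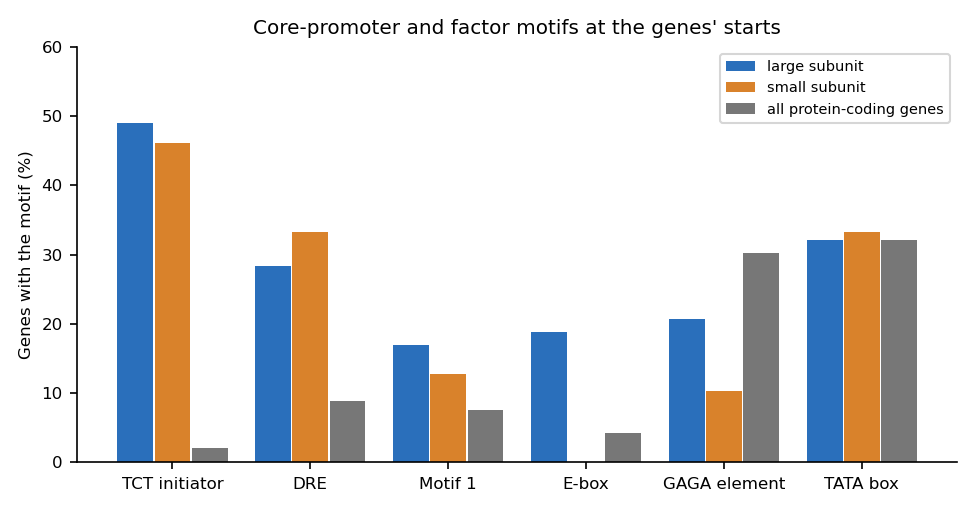
Percentage of genes with each motif at large-subunit, small-subunit and all protein-coding genes; the TCT initiator was searched at the start sites and the others in the 300-base promoter. The TCT initiator is at 49.1% of large-subunit and 2.09% of all protein-coding genes, and the TATA box at 32.1% and 32.2%.

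Genes for ribosome assembly and ribosomal RNA synthesis were described beside the genes of the large-subunit proteins. The hand-picked list is not limited to the large subunit. Of its 26 genes, 9 had a thresholded summit (34.6%), against 17.0% of all protein-coding genes. The strongest was eIF6, which keeps free large subunits from joining small ones, with a signal of 894 at rank 61. Ns2, a GTPase of large-subunit assembly, had 616 at rank 180. The others were nop5 and NHP2, core proteins of the small nucleolar particles, with 307 and 239, Surf6 with 283, the ribosomal RNA methyltransferase Nsun5 with 237, l(3)72Dn with 213, the pseudouridine synthase Nop60B with 194, and Nopp140 with 175. Their summits lay 66 to 269 bp upstream of the start. Those of Ns2, Surf6, Nsun5, l(3)72Dn, Nop60B and Nopp140 also lay within 500 bp of another coding gene's start. The Nop60B peak was the same as that of the mitochondrial ribosomal protein gene mRpS17.

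Among the listed genes without a thresholded summit were those of the RNA polymerase I subunits Polr1A, Polr1B, Polr1C and Polr1E, which is 0 of 4 beside 17.0% of all protein-coding genes, and 4 genes are too few to read from. Of 4 genes for factors of ribosomal protein promoters, Dref, M1BP and pzg had a thresholded summit, against 17.0% of all protein-coding genes; 4 hand-picked genes are too few to read a share from. M1BP had a signal of 403 at rank 479, and Dref shared the RpL13 peak. The M1BP and pzg summits also lay within 500 bp of another coding gene's start. The gene of Trf2 stood at rank 3944 with a signal of 132, just outside the list.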

How the data were processed

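Peak lists deposited by the authors were analysed; per the labels the builds are dm6 and dm3, and the dm6 lists were used. The deposited signal column (unit unstated) ranks peaks, and the deposited −log10 q-value column ran from 2.70 to 3.67 in the thresholded list. The deposited lists are named as thresholded by IDR (irreproducible discovery rate, which keeps peaks ranked alike in replicates) and as candidates for IDR. For the aligner, the peak caller and the IDR limit, none of the sources used here gives a name or value. The candidate lists hold 30000 regions each. Read depth is unknown. Peaks were called for each replicate and for the pooled replicates.

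Start sites came from Ensembl release 115 (BDGP6.54), whose arms match dm6: no peak ended past an arm, and 13897 of 13944 canonical coding sequences (99.7%) began with ATG in the RefSeq genome read here. The strongest summit within 500 bp of any annotated start was taken, and replicate summits were matched within 100 bp. Distances were checked on simulated data. Proteins were translated from the canonical coding sequences and aligned with Biopython 1.88. A pair also had to align over at least 0.5 of the longer protein's length, a limit added after the data were seen. Shares were compared by an exact two-sided sign-flip test over replicates. Python 3.11.15, pandas 2.3.3, numpy 2.4.6 and statsmodels 0.14.6 were used.

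Named genes were those without a thresholded summit, both genes of each paralogue pair, the 10 strongest (1 of them is not reported here), the 3 farthest from a start, the 3 with the widest rank ratio and those just inside and outside the list; other names were added for their roles. The members and lists were chosen with earlier results of these data known.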

Additional observations from a re-analysis of the deposited data

How the results depend on the processing

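Of 60 alternatives to 14 results, 52 kept their direction and, for counts, stayed within 1.5 times and, for shares and medians, within 1 SD over replicates. Differences between gene sets were held to direction only, and some moved by more than 1 SD: with 7632 peaks the difference was 48.7 points from mitochondrial and 60.4 from other coding genes, and at 250 bp 64.5 from mitochondrial genes. The 46 genes with a thresholded summit became 42 to 46 over 6 other settings, the lowest with the stronger 1908 peaks only. Counting each paralogue pair once gave 44 of 48. The share at the strongest replicate summits was 73.6% with 1908 peaks a replicate and 86.2% with 7632, and 79.2 to 83.0% without each replicate in turn. Leaving out each replicate gave differences of 3.53 to 8.06 points from small-subunit genes, 58.0 to 60.6 from mitochondrial ones and 63.2 to 66.3 from other coding genes, 41 to 45 genes matched in every list kept, and mean median ranks of 235 to 355. At 1000 bp the difference from small-subunit genes was 3.13 ± 4.19 points (SD, n = 3; exact sign-flip p = 0.5). The median signed distance changed sign with the summits of replicate 1 (1 bp). Near the summit the windows are centred elsewhere, shorter and hold 46 genes, and the motif counts moved: within 50 bp DRE 9, E-box 5, GAGA element 2 and TATA box 1, and within 100 bp TATA box 6. No paired analysis was possible because the series has a single group, so replicate numbers pair no groups; gene sets were compared within each replicate. The unknown read depth and the missing control samples limit all values: a gene without a candidate may be bound below what these lists show.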

Other observations

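Of the 53 large-subunit genes, 8 lay within 6 Mb of the centromere-proximal end of their arm. RpL15, RpL5 and RpL21, at 0.843, 0.977 and 1.27 Mb, and RpL38 and RpL10, at 4.52 and 5.01 Mb, had a strongest candidate of signal under 160. RpL30, RpL35A and RpL13A, at 4.50, 5.47 and 5.62 Mb, had signals of 725, 552 and 753. Among the other 45 genes, 3 had a signal under 160 and 3 had no candidate. Over all protein-coding genes outside chromosome 4 (80 genes) and without the 1 gene that has no canonical start, a thresholded summit was present at 41 of 434 genes (9.45%) within 3 Mb of that end, at 159 of 1007 (15.8%) from 3 to 6 Mb, and at 2156 of 12423 (17.4%) beyond. The limits of 3 and 6 Mb and of a signal of 160 were chosen after the values were seen, and the part of read mappability was not tested.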
